A study of Rattus norvegicus with 36 samples.

Results

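Transcripts of the intracellular signalling kinases were followed in rat skeletal muscle after 1 bout of resisted contractions. The genes described are those whose platform symbol, where a probe set has only 1, begins with Mapk, Map2k, Map3k, Prka, Prkc, Camk, Akt, Pik3, Gsk3 or Rps6k. They were picked by symbol, with earlier results of these data known. They comprise 62 of the 4736 genes named on the array and 111 of its 8740 non-control probe sets. Each gene is represented by its brightest probe set, and 56 of the 62 had a probe set bright enough to be tested. The other 6 were Prkar2b, Camk2n1, Camk2n2, Camk4, Pik3r2 and Pik3r3, and the last 3 of these did not rise above the floor of 129.5 signal units on any array. Conversely, 28 genes lay above that floor on all 36 arrays.

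The samples were skeletal muscle whose source label adds only "ta", from rats whose strain, sex and age are not given in the sources used here. Total RNA and polysomal RNA (transcripts bound to polyribosomes, which are being translated) were hybridised to 1-colour arrays. The 6 groups were total RNA 1 h after contractions (2 numbered samples), polysomal RNA 1 h after (2), total RNA 6 h after (4), polysomal RNA 6 h after (4), and muscle without stated contractions in 2 sets. Of these, the polysomal control (4) is polysomal by title and description, and the control titled 1hr polysome (2) has a title that names polysomes and a description that does not. Both descriptions give a collection at 1 h, and no agent, allele or surgery is named for any group. Each numbered sample had 2 arrays, which were averaged. In the 6 h groups and the polysomal control, 1 array title of numbers 1 and 2 each has no letter after the number. All other arrays are lettered a or b. Whether the numbers are separate animals is not stated, so the p-values reflect the spread among numbered samples alone, and that spread may be technical.

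Muscle contraction raises cytosolic calcium, cyclic AMP and the AMP to ATP ratio, stretches the fibre and brings growth factors to its receptors. Mitogen-activated protein kinases (MAPK) act at the end of a relay in which a MAP3K phosphorylates a MAP2K, which phosphorylates the MAPK. Protein kinase A (PKA) is a tetramer of catalytic and regulatory subunits that cyclic AMP separates, AMP-activated protein kinase (AMPK) senses energy charge, protein kinase C (PKC) isoforms respond to diacylglycerol and some also to calcium, and calcium/calmodulin-dependent kinases (CaMK) decode calcium transients. Phosphoinositide 3-kinase (PI3K) activates Akt, which inhibits glycogen synthase kinase 3 (GSK3), and the ribosomal protein S6 kinase lies below mTOR. All are regulated mainly by phosphorylation and second messengers, which these arrays do not measure. Not every gene with such a symbol encodes a kinase: Mapk8ip1 and Mapk8ip2 are scaffolds, Camkv is a pseudokinase, Aktip is an Akt-interacting protein, Pik3ip1 is an inhibitor of PI3K, and the Prkar, Prkab, Prkag and Pik3r genes encode regulatory subunits.

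By symbol prefix the tested genes were 11 of 11 Mapk, 4 of 4 Map2k, 5 of 5 Map3k, 9 of 10 Prka (4 of 4 for AMPK and 5 of 6 for PKA), 6 of 6 Prkc, 9 of 12 Camk, 3 of 3 Akt, 6 of 8 Pik3, 2 of 2 Gsk3 and 1 of 1 Rps6k. Of 18 listed markers of skeletal muscle fibres 14 were on the array and none was at the floor throughout. Myh4, the fastest myosin heavy chain of rat limb muscle, ran from 15759 to 48580 signal units, whereas Ckm, muscle creatine kinase, was above the floor on 15 of 36 arrays. Beside the fibre genes all 7 listed fibroblast markers were above the floor on every array, so the RNA came from whole tissue. In such tissue, fewer cells of a type and less RNA per cell cannot be told apart.

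Total RNA at 6 h was not uniform. Between numbers 1 and 2 and numbers 3 and 4 of that group, 26 of the 93 tested member probe sets differed by more than 1 on the log2 scale, against 1 of 93 in polysomal RNA at 6 h and 1 of 93 in the polysomal control. Over all 6707 tested probe sets the shares were 17%, 4.34% and 4.16%. In the polysomal groups, the arrays of numbers 1 and 2 without a letter had higher median signals than their lettered partners. These were 249 and 216 beside 176 and 149 at 6 h, and 238 and 233 beside 169 and 163 in the polysomal control. In total RNA at 6 h they were 249 and 237 beside 235 and 240. The part of these arrays in the division was not tested. The 3′ over 5′ signal ratio of beta-actin, a measure of RNA integrity that rises with degradation, was 9.01 to 11.5 in number 3 of the 6 h total group and 1.01 to 1.58 in its numbers 1, 2 and 4. It was 2.54 to 4.48 in polysomal RNA at 6 h, so this ratio moved with the fraction as well, and its part in the results below was not tested. The same ratio of Gapdh was also high in number 3 (11.4 and 9.73). Its medians at 6 h were close, at 0.93 in polysomal and 0.90 in total RNA.

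The comparison of polysomal with total RNA asks how far each transcript was loaded on ribosomes relative to the other transcripts. Every array was scaled to nearly the same trimmed mean, so no absolute share of a transcript on ribosomes is measured. At 6 h, 8 of the 56 genes (14.3%) passed limma's test at a Benjamini-Hochberg adjusted p under 0.05, against 9.38% of all 3903 genes tested. The genes higher in polysomal RNA were Prkce, Gsk3b, Camk2g, Map3k1, Map3k3 and Camk1, 6 of 56 where the background for that direction is 4.36%. Those lower were Camk2d and Prkar2a, 2 of 56 beside a background of 5.02%. Replicates of the fractions did not overlap for 4 genes that were higher (5.12% of all genes) and 3 that were lower (7.43% of all genes). The median difference was -0.06 over the 56 genes and -0.14 over all genes (log2, polysomal minus total). With quantile normalization or scaling to the 75th percentile, the 6 higher genes were called and neither lower one was, and the median of all probe sets moved from -0.16 to -0.04 and -0.06.

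Prkce, a PKC isoform activated by diacylglycerol without calcium, had the widest difference. Its signals in polysomal RNA at 6 h were 809, 952, 705 and 1063 for numbers 1 to 4, and those in total RNA were 215, 142, 303 and 279. The groups did not overlap: log2 signals were 9.77 ± 0.26 and 7.82 ± 0.49 (SD, n = 4 each), a difference of 1.95 (SE 0.30) or 3.87-fold, with an adjusted p of 0.00283 by limma. At 1 h its signals were 843 and 445 in polysomal RNA against 167 and 298 in total RNA. Prkce was also high in both controls. It read 1099 and 522 in the set titled 1hr polysome and 1101, 1215, 853 and 1207 in the polysomal control. By this probe set, then, total RNA stood out as low at both times. Of the 3 other Prkce probe sets, M18331_at was called in the same direction at 6 h (0.93, adjusted p 0.0312 by limma) and the remaining pair differed by 0.55 and 0.09 without passing. At 1 h, 3 of the Prkce probe sets were higher in polysomal RNA and 1 was lower. The lower one, M15523_s_at, read 388 and 311 in polysomal and 514 and 417 in total RNA (-0.41).

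Gsk3b encodes the beta isoform of the kinase that Akt restrains and that phosphorylates glycogen synthase. Its polysomal signals at 6 h were 1349, 1839, 1304 and 2104 and its total signals 305, 545, 709 and 619. Again no sample of one fraction reached the other, with log2 signals of 10.66 ± 0.34 and 9.02 ± 0.54 (SD, n = 4 each), a difference of 1.64 (SE 0.33), 3.11-fold, and an adjusted p of 0.0103 by limma. The signals at 1 h were 1412 and 1487 against 361 and 421. Gsk3a, the other isoform, lay on the other side, with 1365, 994, 1138 and 1262 in polysomal against 1360, 1257, 3253 and 2142 in total RNA at 6 h (difference -0.65, adjusted p 0.132 by limma, not passing). Numbers 3 and 4 of the total group were the high ones for Gsk3a. The second Gsk3b probe set, X73653_at, read 304, 429, 1937 and 971 in total RNA at 6 h and did not pass (0.82, adjusted p 0.25 by limma).

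Within the calcium/calmodulin kinase II isoforms the gamma and delta genes differed in opposite directions. Camk2g gave 2071, 2197, 1650 and 1877 in polysomal RNA at 6 h and 594, 570, 1092 and 1068 in total RNA. The fractions were apart, with a difference of 1.29 (SE 0.24), 2.44-fold, and an adjusted p of 0.00646 by limma, and at 1 h the signals were 2371 and 1426 against 695 and 659. Camk2d gave 839, 848, 562 and 740 in polysomal and 1414, 1420, 939 and 1090 in total RNA. For Camk2d the polysomal samples were all the lower ones (difference -0.70, SE 0.20, adjusted p 0.0439 by limma), and its probe set rc_AI009268_at also passed (-0.87, adjusted p 0.0326). The second Camk2g probe set, J04063_at, did not pass and had the opposite sign (-0.33). Camk2b, the brightest of the Camk genes, gave 7643, 6141, 5102 and 6029 against 3416, 2906, 8623 and 6071. Its total samples spanned the polysomal ones and it did not pass (0.37), while its other probe set, M16112_at, had the opposite sign (-1.17, adjusted p 0.149 by limma). Camk2a, mainly a neuronal isoform, was near the floor in polysomal RNA.

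Camk1, which the CaMK kinases activate, was measured close to the floor. Its polysomal signals at 6 h were 180, 278, 289 and 228, and its total signals were 136, 139, 130 and 150. Only 3 of the 8 total arrays were above the floor, so the difference of 0.79 (SE 0.20, adjusted p 0.0258 by limma) is set in part by that floor. The 2 CaMK kinases themselves, Camkk1 and Camkk2, did not pass, with differences of -0.27 and -0.25.

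In the MAPK relay the calls by brightest probe set lay in the first tier, the MAP3Ks. Map3k1, which feeds the JNK branch among others, gave 800, 645, 423 and 600 in polysomal RNA at 6 h against 437, 240, 155 and 287 in total RNA. The ranges overlapped slightly, with number 1 of the total group above number 3 of the polysomal group, and the difference was 1.20 (SE 0.32, adjusted p 0.0335 by limma). This was the single gene among the 23 with several tested probe sets that was called in both directions: its probe set rc_AI102620_at was lower in polysomal RNA (-0.63, adjusted p 0.0346 by limma). Map3k3, another kinase of this tier, gave 291, 355, 418 and 327 against 194, 310, 130 and 132. It was called (0.95, SE 0.27, adjusted p 0.0439 by limma), with numbers 3 and 4 of total RNA at or next to the floor; in numbers 1 and 2 alone its difference was 0.39 and did not pass. Map3k12 was at the floor in all polysomal samples at 6 h and read 658, 640, 130 and 130 in total RNA, which did not pass. The other 2 Map3k genes, Map3k8 and Map3k9, did not pass either.

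None of the 4 Map2k and 11 Mapk genes passed in this comparison at 6 h by their brightest probe sets; at an unadjusted p under 0.05 limma gave 0 and 4. The 4 were Mapk12 (0.49), the gamma isoform of the p38 group and prominent in skeletal muscle, Mapk9 (-0.65), which encodes a JNK, Mapkapk2 (-0.42), a kinase below p38, and the scaffold Mapk8ip1 (-0.42). Mapk8ip1 was at the floor in all polysomal samples at 6 h and in numbers 3 and 4 of total RNA. Its value is thus set by the floor and by numbers 1 and 2 of total RNA (268 and 203). Mapk14, the alpha isoform of p38 and the brightest Mapk gene, differed by 0.23. Map2k2, 1 of the 2 kinases that activate ERK, was the brightest of its family and differed by 0.57 (adjusted p 0.197 by limma). Its total signals of 3294, 3578, 7781 and 7152 were low in numbers 1 and 2 and at the level of polysomal RNA in numbers 3 and 4. A pair of less bright Map2k2 probe sets were called higher, by 0.89 and 1.13. For Map2k1, its partner, 1 less bright probe set was called lower (-0.83), in a group where number 3 stood apart.

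By their medians the PKA subunits lay towards total RNA and the AMPK subunits towards polysomal RNA, but only 1 gene passed. Prkar2a, a type II regulatory subunit, gave 520, 523, 480 and 463 in polysomal against 650, 722, 938 and 636 in total RNA at 6 h. Its fractions did not overlap (difference -0.55, SE 0.16, adjusted p 0.0474 by limma). Over the 5 PKA genes the median was -0.30 with 4 below zero, and over the 4 AMPK genes it was 0.46 with 3 above zero, beside -0.14 for all genes. The same split was seen between the 2 controls, taken as the polysomal control minus the other. There the median was -0.40 for PKA, with 5 below zero, and 0.23 for AMPK, with 3 above zero, beside -0.02 for all genes. Polysomal RNA at 1 h minus the control titled 1hr polysome gave -0.42 and 0.09, although both are polysomal by title. In polysomal RNA at 6 h minus the polysomal control the medians were 0.15 for PKA and -0.05 for AMPK. Prkab1, an AMPK subunit, read 818, 713, 263 and 469 in total RNA at 6 h. Prkaa2, the alpha-2 catalytic subunit of AMPK that predominates in muscle, gave 1040, 1719, 947 and 840 against 527, 449, 1441 and 413. Number 3 of total RNA was its one high sample, and the gene did not pass (0.83, adjusted p 0.165 by limma). Prkaca, the main PKA catalytic subunit, did not pass by its brightest probe set (-0.30), for which number 3 of total RNA read 5884 and the other total samples 1308 to 3015. The other Prkaca probe set, X57986mRNA_s_at, nearly as bright, was called lower (-0.87, adjusted p 0.0208 by limma).

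None of the 3 Akt, 6 Pik3 and 1 Rps6k genes passed at 6 h by limma; unadjusted p values under 0.05 numbered 0, 1 and 0. Akt1, the brightest of them, was close to even, with 2647, 2284, 3152 and 2190 in polysomal and 2332, 2136, 2623 and 2377 in total RNA (difference 0.11). Akt2, the isoform most tied to insulin action in muscle, depended on the numbers compared. Its polysomal signals were 443, 393, 354 and 346, and its total signals 1705, 1280, 233 and 219. Numbers 1 and 2 of total RNA lay near the 1505 and 1832 of total RNA at 1 h, and numbers 3 and 4 lay below the polysomal samples. Rps6kb1 differed by -0.15, and the PKC isoforms other than Prkce lay between -0.20 and 0.11.

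**Figure D1:**
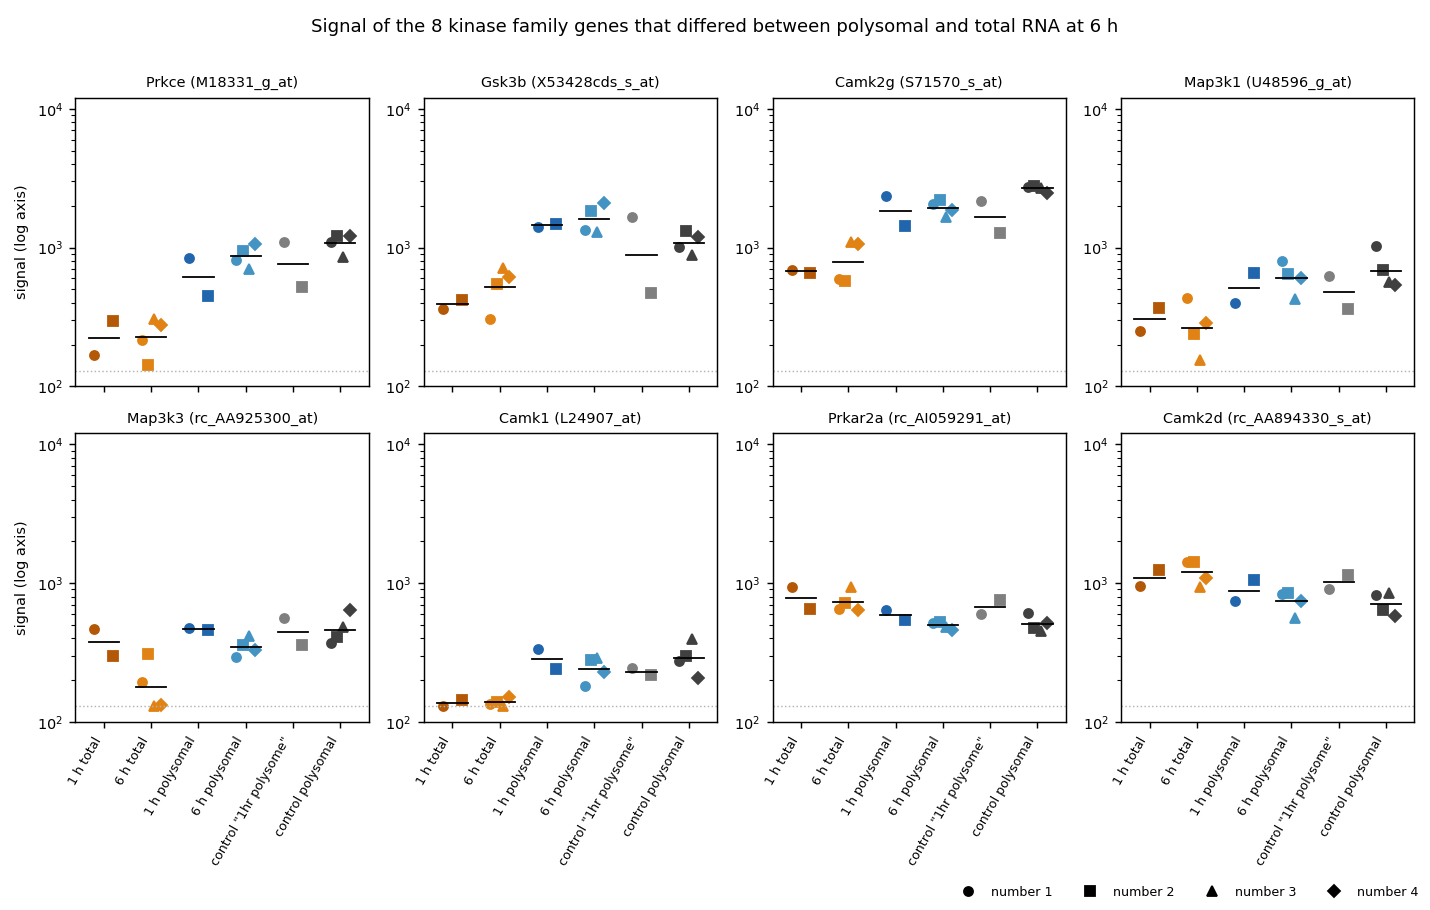
Signal (log axis) of the 8 kinase family genes that differed between polysomal and total RNA at 6 h, by group; points are numbered samples (mean of 2 arrays), black bars are group means and the dotted line is the floor of 129.5. The blue polysomal samples of Prkce, Gsk3b and Camk2g lie above all orange total samples at 6 h.

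The results at 1 h come from other samples. With 2 samples a group no gene passed limma's test, beside 0.333% of all genes, although 12 of the 56 had an unadjusted p under 0.05. Each of the 8 genes called at 6 h had the same sign at 1 h, and 4 of them (Prkce 1.46, Gsk3b 1.89, Camk2g 1.44 and Camk1 1.05) had an unadjusted p under 0.05 there. Of all 366 genes called at 6 h, 336 (91.8%) kept their sign and 149 (40.7%) also had such a p. The change of this difference from 1 h to 6 h was itself tested and no kinase gene passed (3 with unadjusted p under 0.05 by limma; 0% of all genes passed).

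The smallest p values at 1 h belonged to Pik3c3, Camk2g and Prkar1a. Pik3c3, the PI3K that acts in autophagy and vesicle traffic, read 130 and 140 in polysomal and 204 and 222 in total RNA (difference -0.66, adjusted p 0.0699 by limma). Its polysomal samples lay at or next to the floor, which in part sets this value. Prkar1a, a type I regulatory subunit of PKA, read 831 and 1075 against 1813 and 2057 (-1.03, adjusted p 0.0858 by limma). Both had lower polysomal than total samples, as 16 of the 56 genes did without overlap (27.9% of all genes), and 16 others were higher without overlap (20.8% of all genes). All 5 PKA genes were below zero at 1 h, with a median of -0.84, and all 4 AMPK genes above it, with a median of 0.20, beside -0.04 for all genes. Rps6kb1 read 386 and 384 against 680 and 643 (-0.78, adjusted p 0.201 by limma).

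**Figure D2:**
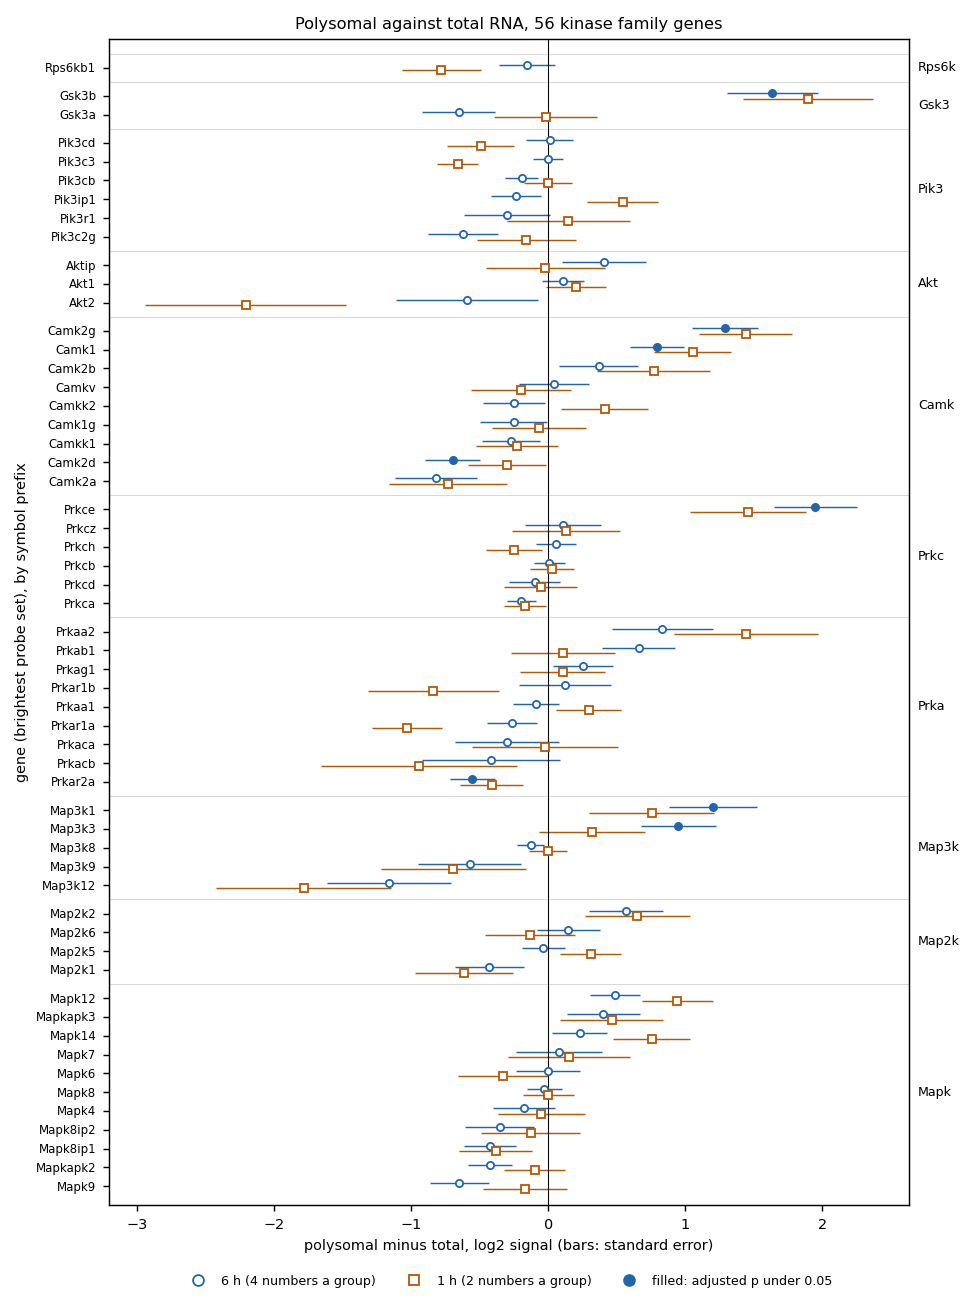
Difference between polysomal and total RNA (log2 signal, bars are standard errors) for the 56 tested genes, grouped by symbol prefix; circles are 6 h and squares 1 h, and filled symbols passed at an adjusted p under 0.05. Prkce, Gsk3b and Camk2g lie far to the right at both times, while Akt2 and Map3k12 lie to the left with wide errors.

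The calls at 6 h did not all withstand the division of total RNA described above. Computed with numbers 1 and 2 of the 6 h set alone, a division made after the data were seen, 12 genes were called, and with numbers 3 and 4 alone none was, although 13 had an unadjusted p under 0.05 by limma. Prkce differed by 2.33 and 1.57 in the 2 subsets, Gsk3b by 1.95 and 1.32 and Camk2g by 1.87 and 0.70, and the other 5 genes kept their sign as well. The subsets are parts of the samples that gave the calls, so the kept signs are no independent support. Where the fractions do not overlap, the sign in either subset is fixed in advance. The polysomal minus total difference of Akt2 was -1.82 in numbers 1 and 2 and 0.63 in numbers 3 and 4, given as a description because these subsets were chosen after the division was seen. When number 3 of total RNA, the sample with the high actin ratio, was left out, 7 genes were called. Camk1, Camk2d, Camk2g, Gsk3b and Prkce were among them, Map3k12 and Prkaa2 were gained, and Map3k1, Map3k3 and Prkar2a were lost. Without number 1, 2 or 4 of total RNA 5, 5 and 12 genes were called, and without number 1, 2, 3 or 4 of polysomal RNA 4, 3, 4 and 4. Prkce, Gsk3b and Camk2g were called whichever single sample of either fraction was left out. Camk1 was lost without number 2 or 3 of polysomal RNA. Map3k1 stayed without number 1 or 4 of total RNA or number 3 of polysomal RNA, Camk2d without number 3 or 4 of total RNA, Map3k3 without its number 2 and Prkar2a without its number 4, and each was lost without any other sample. When the mean of all tested probe sets stood for a gene, 8 genes were again called, but not the same ones: Prkce fell to 0.88 (adjusted p 0.00566 by limma) and Gsk3b to 1.23 (adjusted p 0.0365) and both were called, while Camk2g fell to 0.48 (adjusted p 0.0907) and was lost with Map3k1 (0.39), and Map2k2 and Mapk9 were gained. Camk2g also missed the threshold when only the compared groups were fitted (1.29, adjusted p 0.0504 by limma).

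Of the 26 probe sets that divided total RNA at 6 h, 20 were higher in numbers 1 and 2. For Map3k12 those signals (658 and 640) resembled total RNA at 1 h (541 and 369), and the same held for Mapk6 by probe set M64301_at, with 1360 and 1241 beside 130 and 231. The Gsk3b probe set X73653_at and the brightest Camk2b probe set went the other way. Probe sets of 1 gene often disagreed: of the 23 genes with several tested probe sets, 11 had differences of opposite sign at 6 h and 13 at 1 h.

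**Figure D3:**
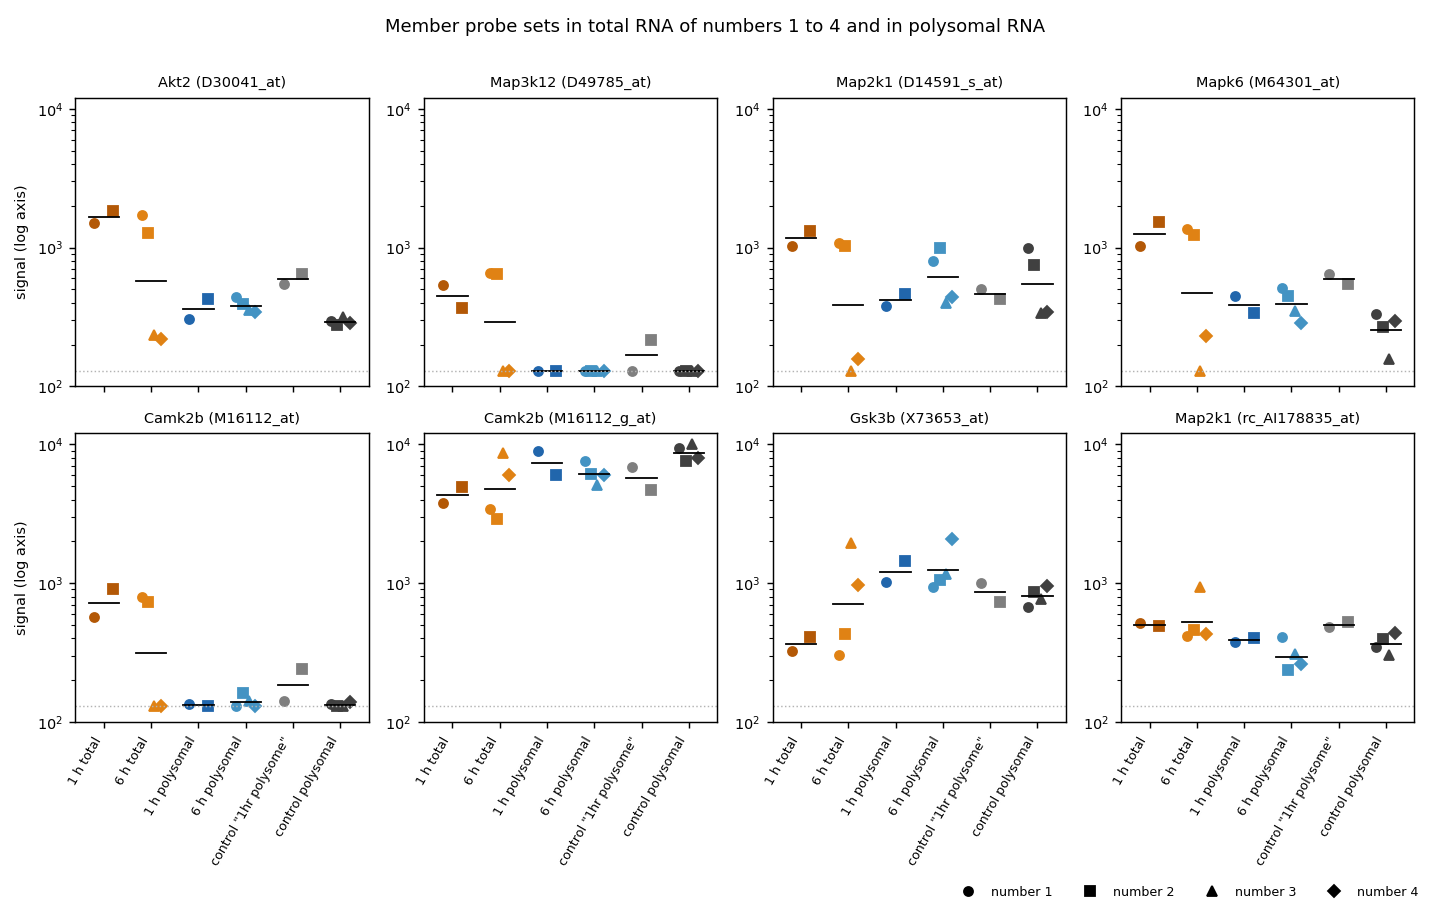
Signal (log axis) of 8 member probe sets that illustrate the division of total RNA at 6 h, chosen after their values were seen; symbols, bars and floor are as in the plot of the called genes. For Akt2, Map3k12, Map2k1 (D14591_s_at), Mapk6 and Camk2b (M16112_at), numbers 1 and 2 of 6 h total RNA lie with 1 h total RNA and numbers 3 and 4 lie near or below polysomal RNA.

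Polysomal RNA 6 h after contractions was set against the polysomal control to ask which kinase transcripts on ribosomes differed after contractions. That control is described as collected at 1 h, so contraction and time of collection cannot be told apart here. None of the 56 genes passed limma's test, beside 0.384% of all genes, and 3 had an unadjusted p under 0.05. That test did not pair same-numbered samples, and with each number fitted as a block none was called either. The medians were -0.02 for the kinase genes and -0.04 for all. The 3 genes were Pik3ip1, Mapk14 and Prkar1b.

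Pik3ip1, the PI3K inhibitor, came closest. Its signals were 812, 1236, 728 and 695 at 6 h and 1508, 1367, 1505 and 1165 in the control, where number 2 after contractions reached into the control range. The difference was -0.71 (SE 0.18, adjusted p 0.15 by limma). Without number 2 of the 6 h polysomal group it was -0.89 with an adjusted p of 0.0233 by limma. With every array fitted and the number as a random block it was -0.71 with an adjusted p of 0.0344, and it did not pass under the other alternatives. At 1 h Pik3ip1 read 1318 and 1357 against 1315 and 1081 in its control, a difference of 0.17 that did not pass, and the change of the response between the times, -0.87, did not pass either (adjusted p 1).

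Mapk14 read 3385, 4727, 4128 and 3024 at 6 h and 4815, 5232, 6372 and 4867 in the control. All samples after contractions were the lower ones, but the difference of -0.49 (SE 0.20) had an adjusted p of 0.694 by limma. Prkar1b, a type I regulatory subunit of PKA, read 1058, 1381, 1329 and 1248 against 892, 1066, 559 and 494 (0.80, SE 0.34, adjusted p 0.741 by limma), with one control sample inside the range after contractions. The replicates did not overlap for 3 genes that were higher (Prkaa1, Prkaca and Akt2; 2.69% of all genes) and for 4 that were lower (Mapk14, Camk2g, Camk2b and Aktip; 2.25% of all genes). The other Prkaca probe set, X57986mRNA_s_at, whose mean signal is about the same, was lower without overlap (1269, 1416, 1547 and 1098 against 1700, 1558, 2225 and 2864; -0.62, adjusted p 0.443 by limma), so Prkaca has no settled direction here. Camk2g read 2071, 2197, 1650 and 1877 against 2740, 2802, 2691 and 2497, a difference of -0.47 that did not pass. The 9 macrophage markers on the array summed to 7297 to 18940 in polysomal RNA at 6 h and to 6146 to 9486 in the control. Such a sum is weighted towards the brightest markers. The 8 that were tested had a median difference of 0.07 (log2), and none was called. The part of these markers in the kinase values was not tested.

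At 1 h, polysomal RNA was compared with the control titled 1hr polysome. No kinase gene passed limma's test and none had an unadjusted p under 0.05, beside 0% of all genes called. The smallest p values were those of Prkar1a (-0.42), Mapk12 (0.40) and Gsk3b (0.72), each with an adjusted p of 1. Gsk3b read 1412 and 1487 after contractions, and the control samples were 1657 and 470. Without the second of these controls the difference was -0.19, so 1 sample gives its sign. Mapk12 read 2577 and 3057 against 2452 and 1847, and against the polysomal control its difference was -0.04. The change of the polysomal response from 1 h to 6 h gave no call either (2 genes with unadjusted p under 0.05 by limma, 0% of all genes called).

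**Figure D4:**
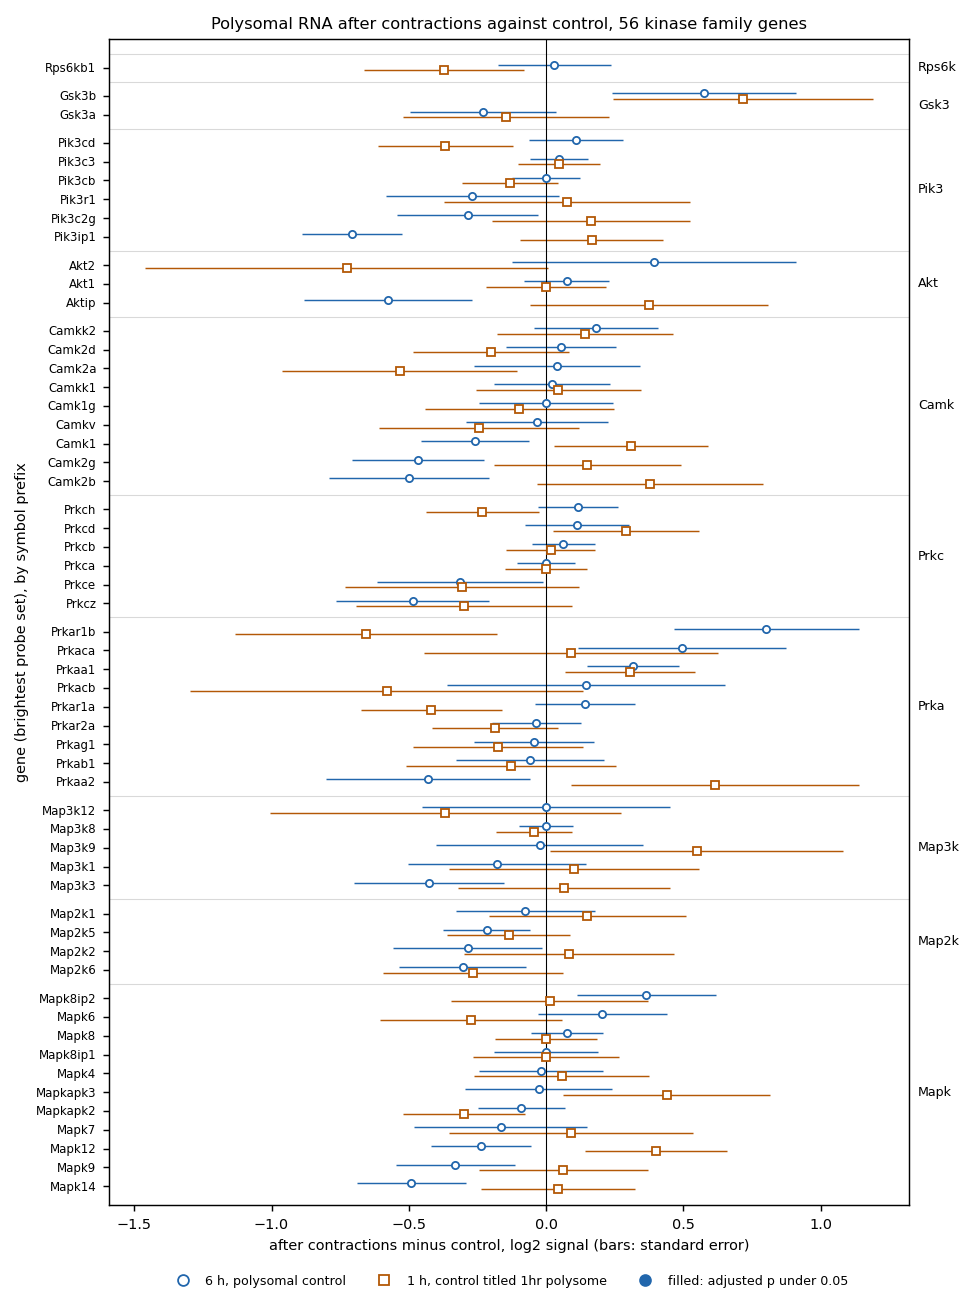
Difference between polysomal RNA after contractions and control (log2 signal, bars are standard errors) for the 56 tested genes by symbol prefix; circles are 6 h against the polysomal control and squares 1 h against the control titled 1hr polysome. No symbol is filled, since no gene passed, and Pik3ip1 lies farthest to the left at 6 h.

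Total RNA at 6 h against 1 h gave no call among the kinase genes (3 with unadjusted p under 0.05 by limma; 0.0256% of all genes called). Pik3c3 was lowest in p, with 158, 130, 130 and 130 at 6 h and 204 and 222 at 1 h (-0.65, adjusted p 0.145 by limma), all but the first 6 h sample at the floor. Map3k3 (-1.07) and Akt2 (-1.52) followed, both with low numbers 3 and 4 at 6 h. Polysomal RNA at 6 h against 1 h gave none either (3 with unadjusted p under 0.05; 0% of all genes called), and the smallest p values were those of Mapk9 (-0.92), Pik3ip1 (-0.66) and Prkar1b (1.06), for which polysomal number 2 at 1 h read 1071 and number 1 read 333.

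The 2 controls did not differ for any kinase gene by limma's test (2 with unadjusted p under 0.05; 0% of all genes called). The smallest p values were those of Camk2g (0.69, polysomal control minus the other) and Prkaa2 (0.99), the 2 with an unadjusted p under 0.05, and Camk2d (-0.51, unadjusted p 0.0544 by limma). Total RNA at 1 h against the control titled 1hr polysome gave no call (9 with unadjusted p under 0.05 by limma; 0.0512% of all genes called). Its smallest p values were those of Pik3c3 (0.71), Prkce (-1.76) and Camk2g (-1.29). For Pik3c3 that control read 129.5, the floor, and 131.4. Prkce read 167 and 298 in total RNA and 1099 and 522 in that control, which lay among polysomal samples. Camk2g read 695 and 659 in total RNA and 2157 and 1274 in that control. The 1274 of number 2 lay below all polysomal samples (lowest 1426) and above all total samples (highest 1092). For Gsk3b number 2 read 470, beside 361 and 421 in total and 1412 and 1487 in polysomal RNA at 1 h. These genes do not settle which fraction this control holds.

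Other genes of these pathways were followed as 5 lists. In the comparison of polysomal with total RNA at 6 h, in which 9.38% of all genes were called, the shares called were 18.8% (3 of 16), 11.1% (2 of 18), 11.8% (2 of 17), 6.25% (1 of 16) and 14.3% (2 of 14) in the order below, and nothing particular to these lists is read from them. Of 16 tested genes for upstream receptors and the Ras and Raf step, Cdc42, a small GTPase above several MAP3Ks, was higher in polysomal than total RNA at 6 h (0.86, adjusted p 0.0105 by limma). The receptor gene Met (-0.80, near the floor) and the Raf gene Araf (-0.51) were lower. Of 18 genes for calcium, calmodulin and phospholipase C, Ppp3ca, the catalytic subunit of calcineurin, was higher at 6 h (7431 against 4001, difference 0.89) and at 1 h (7254 against 3156, difference 1.20; 1 of 18 genes beside 0.333% of all genes), and Dgka, a kinase that removes diacylglycerol, was lower at 6 h (-0.68). Of 17 genes of the PI3K, Akt and mTOR list, Pdpk1, the kinase that activates Akt, was higher (1.02) and Irs2, an insulin receptor adaptor, was lower (-0.90). Of 16 genes of the cyclic AMP list, Akap1, which anchors PKA at mitochondria, was lower (-0.67). The medians of these 4 lists at 6 h were -0.28, -0.30, -0.01 and -0.38, beside -0.14 for all genes.

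The fifth list held 14 tested MAPK phosphatases and targets. Between polysomal and total RNA at 6 h Dusp6, an ERK phosphatase, was higher (0.97) and the transcription factor gene Mef2d lower (-0.83). It was the one list with a call after contractions: Fos, whose transcription MAPK signalling drives, rose to 12928 from 1689 in polysomal RNA at 6 h (difference 2.94, adjusted p 0.043 by limma), 1 of 14 genes beside 0.384% of all genes. Its median in that comparison was 0.83, beside -0.04 for all genes. The list was chosen with earlier results of these data known, so its call and median are no independent finding about MAPK targets. Egr1 (2.77), Fosl1 (2.02), Junb (1.52) and Dusp5 (1.12) did not pass after adjustment, and were named after their values were seen.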

How the data were processed

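The intensity signals that the authors deposited, 1 linear value per probe set and array in a table of all 36 arrays, were used with their scaling (2% trimmed mean 801.03 to 801.862). The software and summary method are not given in the sources used here, so the scaling target and any centring stay unknown; the linear scale follows from the values. After 59 control probe sets were left out, signals under the 40th percentile (129.5) were set to it, log2 was taken, and a probe set entered the test if it exceeded this floor on 4 or more arrays (6707 of 8740). Averaging both arrays of each number left 18 replicates, whose number limits the precision. limma 3.58.1 in R 4.3.3 (lmFit, contrasts.fit, eBayes) fitted 1 model over 6 groups with 12 residual degrees of freedom. Tests were two-sided, p-values were adjusted by Benjamini and Hochberg's method across 6707 probe sets, and 0.05 was the threshold. The scripts were tested on simulated data.

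Symbols came from the platform annotation, updated by Entrez identifier (7006 probe sets with 1 symbol, 308 with several and 1426 with none; 6985 matched). Named are all called genes, otherwise the 3 with the smallest p, the brightest and most variable gene of a family, and genes whose probe sets disagree; further genes were picked with their values in view. The members and lists were chosen with earlier results of these data known. Same-numbered polysomal samples at 6 h and of the polysomal control deviated from their group means together (correlations 0.43 to 0.54 over probe sets). These numbers may therefore pair them, although the labels do not say so. Numbers 1 and 2 of both groups also share the titles without a letter, whose part in these correlations was not tested. For number 3 (0.44) the highest correlation with another number was 0.37. The main model does not pair samples, and the replicate block does. Total and polysomal RNA at 6 h (0.07 to 0.25) did not meet the minimum of 0.1 in every pair. Alternatives were other scalings, floors, filters, blocks, probe set rules, leaving out each sample and, added after seeing the data, numbers 1 and 2 or 3 and 4 of the 6 h set alone.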

Additional observations from a re-analysis of the deposited data

Results flagged for a closer look

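Of the 70 groups of 4 samples examined for 24 kinase genes, 2 held a sample far from the others, no more than the about 1 in 20 that chance gives. Prkar1a, a regulatory subunit of PKA, read 989 in number 3 of polysomal RNA at 6 h and 1280 to 1340 in the other samples. Pik3c3 read 158 in number 1 of total RNA at 6 h and 130 in the others, which are all set to the floor, so that any value above it would have stood apart.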

How the results depend on the processing

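The counts are of kinase genes called by limma. For polysomal against total RNA at 6 h the count of 8 became 4 without a filter on dim probe sets, 2 when only the compared groups were fitted, 15 when every tested probe set was counted and 0 with numbers 3 and 4 alone (13 with an unadjusted p under 0.05); leaving out 1 sample gave 3 to 12. It was 6 with the replicate block, where Map3k3 and Prkar2a were lost, and 6 under quantile or 75th percentile scaling. For polysomal against total RNA at 1 h the count of 0 became 1 without a filter, 7 with every array fitted and the number as a random block, and 1 with the replicate block (Prkar1a, -1.03, adjusted p 0.0286). Total RNA at 6 h against 1 h gave 1 without a filter and 1 with the random block, and total RNA at 1 h against the control titled 1hr polysome gave 1 and 3. Polysomal RNA at 6 h against its control gave 1 with the random block and 0 to 1 when a sample was left out. The replicate block, by which these samples may pair, called none. The sign turned for Gsk3b in polysomal RNA at 1 h without number 2 of the control titled 1hr polysome (-0.19, and 1.62 without its number 1) and for Mapk12 at 1 h with the other control (-0.040). The cause of these changes was not tested. No paired analysis was possible for 6 h against 1 h or between the controls because their numbers belong to different sets. Dim probe sets limit what can be seen: at the floor only a bound is measured.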
